A study of Mus musculus with 6 samples.

Results

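Rab proteins are small GTPases that switch between a GTP-bound form on membranes and a GDP-bound form that is drawn back into the cytosol, and each marks a particular membrane along the secretory and endocytic routes. In neurons, Rab3 proteins sit on synaptic vesicles and bind active zone proteins before exocytosis, whereas Rab5, Rab4, Rab11 and Rab7 direct early, recycling and late endosomes, through which receptors are internalized, returned to the surface or degraded. Exchange factors load GTP onto a Rab, GTPase-activating proteins end the active state, and GDP dissociation inhibitors carry the inactive protein.

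The Rab genes described here are those of the deposited expression table whose symbol is Rab, a number and at most 1 letter. They came to 59 of 25785 gene names. They occupied 80 transcript rows, and for the 13 genes with several rows the row with the highest mean was kept. The vesicle-bound set of 4 Rab3 genes was set against 18 genes of early, recycling and late endosomes. Of the 59 genes, 54 had a mean of at least 10 and were tested, 17 of them endosomal, and Rab17, Rab19, Rab20, Rab25 and Rab44 lay under that level.

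RNA was sequenced from whole hippocampus of C57B1/6J mice at postnatal day 30 (P30), in 3 wild-type libraries and 3 from animals labelled as PTCHD1 mutants. Ptchd1 is an X-linked gene for a membrane protein with a patched domain, and human variants in it are known in intellectual disability and autism. The labels do not say which stretch of the gene was altered, the sex or litter of the mice, which libraries shared a sequencing lane, or whether each library is a separate animal. The p-values therefore reflect only the variation among these 6 libraries, some of which may be technical. Neither group carries another allele or treatment that the labels name.

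Values are normalized read equivalents, the authors' normalized base coverage divided by a read length of 42 bases, and log2 changes are mutant against wild type on the log2(value + 1) scale. Before normalization the libraries held from 12450700 to 23749100 read equivalents. The targeted gene, Ptchd1, measured 323, 389 and 411 in the wild-type and 181, 150.03 and 129.97 in the mutant libraries, a log2 change of -1.28 ± 0.14 (SE) (limma, adjusted p = 0.0342), and was the only gene of 15717 past an adjusted 0.05. That adjusted p from limma was 0.0644 without wild-type replicate 1, 0.371 without wild-type replicate 3 and 0.223 without mutant replicate 2. Markers of pyramidal, dentate granule and inhibitory neurons, oligodendrocytes, astrocytes and microglia were detected in every library. Markers of choroid plexus, the secretory epithelium of the ventricles that lies beside the hippocampus, summed to between 4780.7 and 87061 in wild type and between 5032.8 and 6711.6 in the mutants, with wild-type replicates 1 and 3 high. Base composition also differed between libraries, most strongly in 1 library of each group. Across genes, deviations in wild-type replicate 2 correlated negatively with transcript GC content (Spearman -0.478), and those in mutant replicate 1 positively (0.431). The same correlation was weaker in wild-type replicates 1 (-0.009) and 3 (-0.18) and in mutant replicates 2 (0.012) and 3 (0.084). In bulk tissue, fewer cells of a type and less RNA per cell cannot be told apart.

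No Rab gene passed limma's adjusted threshold of 0.05, against 0.00636% of all tested genes; with library quality weights Rab6b alone of them did (limma, adjusted p = 0.0448), where 5.12% of all tested genes passed. At an unadjusted p under 0.05 there were 3 Rab genes higher in the mutants (5.56% of 54, background 9.01%) and 6 lower (11.1%, background 9.7%), so the share of Rab genes at that level lay near or under that of all genes. The higher ones were Rab3a, Rab6b and Rab36, and the lower ones were Rab33b, Rab31, Rab28, Rab11a, Rab27b and Rab24. The count of 9 became 4 without wild-type replicate 2 and 5 without wild-type replicate 3, while the share of all genes at that level went from 18.7% to 12% and 11.7%. The 3 mutant libraries all lay above the 3 wild-type libraries for 6 genes (11.1%, background 12.3%) and all below for 8 (14.8%, background 12%). When the authors' own p-values were adjusted over the same genes, 2 Rab genes were called higher, Rab3a and Rab6b (3.7%, background 4.57%), and 2 lower, Rab31 and Rab33b (3.7%, background 3.23%). The fitted change of 48 of the 54 genes was within 1.2-fold in either direction, and the median log2 change of -0.0044 compared with -0.016 over all tested genes.

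**Figure D1:**
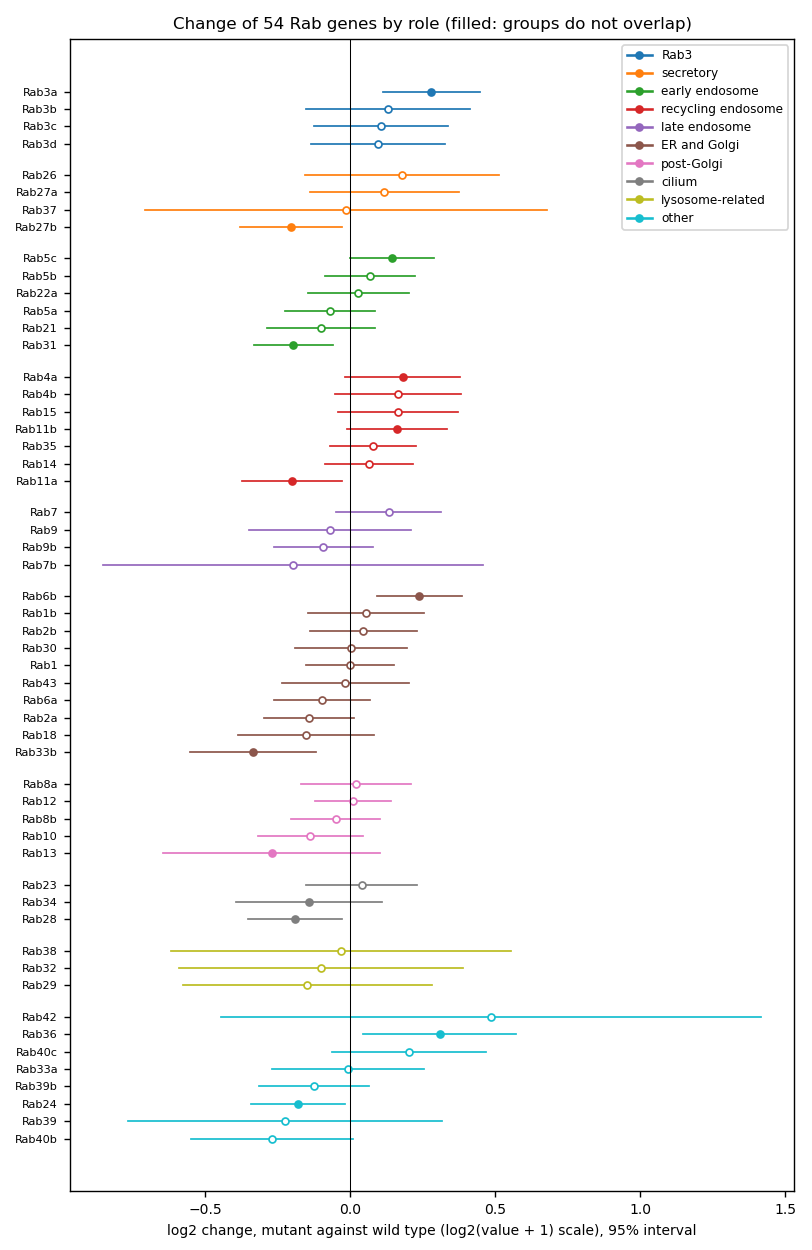
Log2 change of the 54 tested Rab genes, mutant against wild type, grouped by role, with 95% limma intervals (horizontal axis, log2 units). Filled points are the 14 genes whose 3 mutant and 3 wild-type libraries do not overlap; Rab3a and Rab6b are the filled points farthest right among the vesicle and Golgi genes, and Rab33b lies farthest left among filled points.

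Per base of transcript, which puts genes of unlike length on 1 scale, hippocampal Rab RNA was led by genes of the Golgi and of synaptic vesicles. Rab6a, which returns vesicles from endosomes and Golgi towards the endoplasmic reticulum, had the highest mean coverage per base, 173, followed by Rab3a at 155, Rab2a at 128 and Rab6b, the neuron-enriched relative of Rab6a, at 84.6. Rab7 of late endosomes stood at 65.4 and Rab3c at 58.1. Endoplasmic reticulum and Golgi genes made up 36.5% of the summed Rab coverage per base, recycling endosome genes 13.6%, early endosome genes 9.36% and late endosome genes 6.83%. The 4 Rab3 genes made up 17.0%, nearly all of it Rab3a (11.9%) and Rab3c (4.46%). Rab3b and Rab3d reached only 6.68 and 2.32 per base. Rab18, Rab27b and Rab43 were left out of this scale because their transcript rows differ in length by more than 2-fold; their GC and length correction used the length of the row kept.

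**Figure D2:**
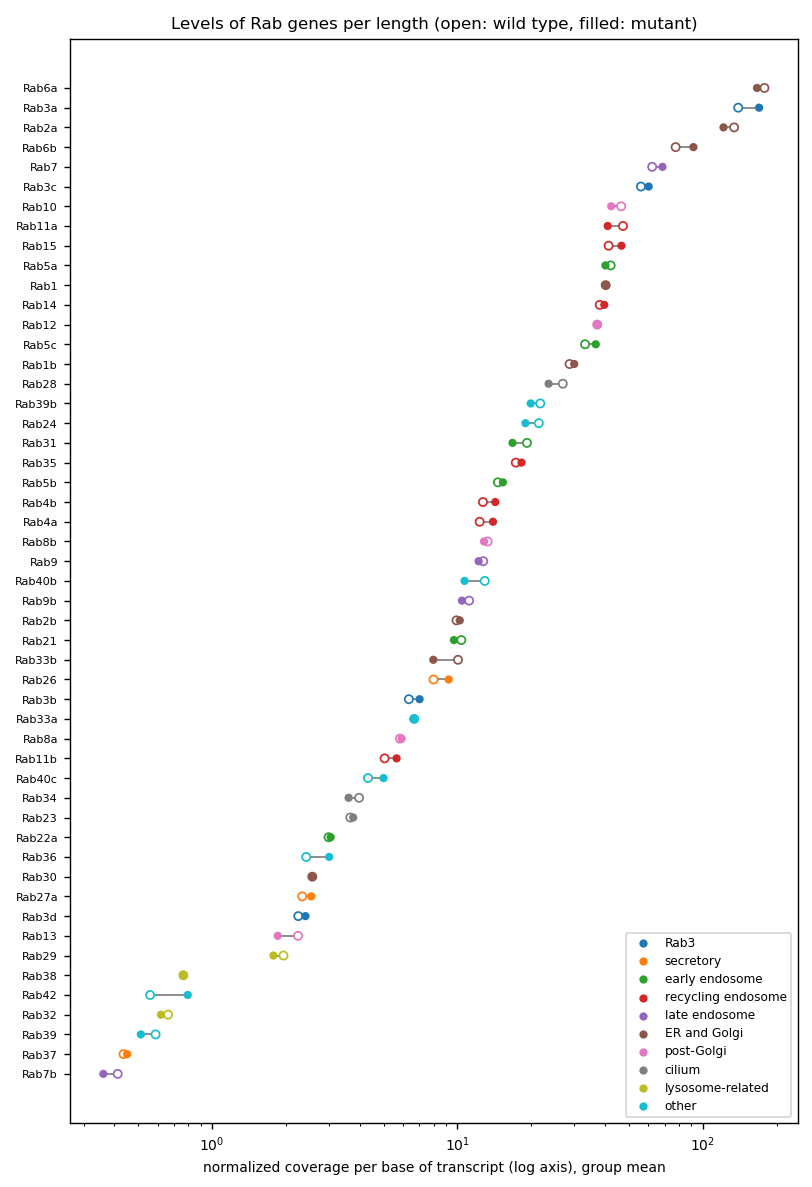
Mean normalized coverage per base of transcript (log axis) for Rab genes with an assigned length, open circles for wild type and filled circles for mutants, coloured by role. Rab6a, Rab3a and Rab2a are the highest, and the distance between the open and filled circles is small beside the spread between genes.

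Among the 4 vesicle-bound Rab3 genes, Rab3a was the one whose groups did not overlap. Rab3a, the main Rab of synaptic vesicles and a ligand of the active zone protein RIM, measured 4595, 4777 and 5008 in the wild-type and 6473, 5546 and 5476 in the mutant libraries. All 3 mutant libraries lay above all 3 wild-type libraries, replicate 1 of the mutants by the widest margin. The group means were 4793 ± 207 (SD, n = 3) for wild-type and 5832 ± 557 (SD, n = 3) for mutant libraries, a log2 change of 0.28 ± 0.075 (SE) with a 95% interval of 0.11 to 0.45 (limma, adjusted p = 0.129).

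Rab3c, the other abundant vesicle Rab, measured 9899, 12797 and 11086 in the wild-type and 13828, 11432 and 11069 in the mutant libraries. Its groups overlapped, with the lowest library wild-type replicate 1 and the highest mutant replicate 1, and its log2 change was 0.11 with an interval of -0.13 to 0.34. Rab3b gave 502, 460.1 and 545 in the wild-type and 682, 488 and 497 in the mutant libraries. Only mutant replicate 1 exceeded the wild-type range, and the log2 change of 0.13 had an interval of -0.15 to 0.41. Rab3d, a Rab of secretory granules in gland cells, gave 198, 211 and 214 in the wild-type and 238, 219.9 and 209 in the mutant libraries, with overlapping groups and a log2 change of 0.095. All 4 estimates were positive, the median being 0.12, but the intervals of Rab3b, Rab3c and Rab3d each held 0. Each of these intervals also held the log2 change of Rab3a, and the difference between the Rab3 genes was not tested. In mutant replicate 1 all of them were at their highest of the 6 libraries, and without it Rab3b had a log2 change of -0.026.

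Rab3a kept an unadjusted p under 0.05 under all 17 alternative settings, its log2 change running from 0.20 to 0.32. After each library was corrected for GC content and transcript length its log2 change was 0.28. Summed pyramidal neuron markers also ran higher in the mutants, 47523 to 50168 against 41209 to 43840 in wild type, and none was at 0. Camk2a was the largest part of the sum. Of the 5 markers, 4 were higher without overlap (80%, background 12.3%), and Neurod6 overlapped at a log2 change of -0.050. The part of these markers in the Rab3a difference was not tested. In the authors' deposited tables, Rab3a was among 142 genes that gave the term synapse its enrichment among higher genes (4.91-fold, corrected p = 5.82e-54) and among 23 in a list of interneuron genes (3.18-fold, corrected p = 9.29e-06). Summed levels of 6 interneuron markers ran from 11993 to 12640 in the mutants and from 10972 to 11833 in wild type. Of these markers, 2 were higher without overlap, Slc32a1 and Sst (33.3%, background 12.3%). The others overlapped, 2 log2 changes were negative, and the median was 0.040. The part of the interneuron markers in the Rab3a difference was not tested.

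**Figure D3:**
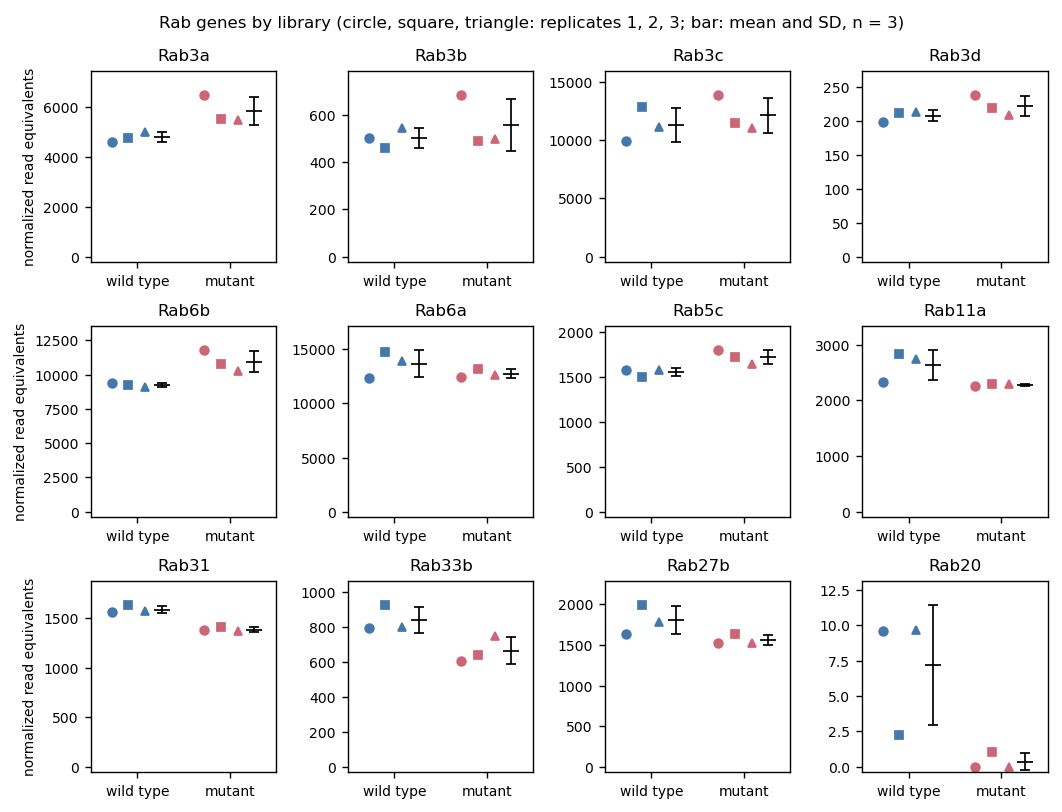
Normalized read equivalents of 12 Rab genes in each library (vertical axis from 0; circles, squares and triangles are replicates 1, 2 and 3, and the bar is the mean with its SD, n = 3). Rab3a, Rab6b and Rab5c separate upwards in the mutants; Rab11a, Rab31, Rab33b and Rab27b separate downwards; Rab3b, Rab3c, Rab3d and Rab6a overlap; and Rab20 is near 0 except in wild-type replicates 1 and 3.

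Secretory relatives did not share a direction. Rab27b, which acts with Rab27a in the docking of secretory vesicles, measured 1642, 1989 and 1789.6 in the wild-type and 1526, 1638 and 1530.0 in the mutant libraries. Its mutant libraries all lay below the wild-type ones, although the lowest wild-type and highest mutant values were close, and the log2 change was -0.20 (limma, adjusted p = 0.209). Rab27a gave 183, 177 and 168 in the wild-type and 178, 184 and 212 in the mutant libraries, with overlapping groups and a log2 change of 0.12. Rab26, a vesicle Rab, spread widely within the mutants, with 291, 319 and 289.7 in the wild-type and 417, 261 and 359 in the mutant libraries. Rab37 had a log2 change of -0.015 and an interval from -0.71 to 0.68, too wide to place it.

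The 6 early endosome genes split 3 to 3 around 0. Rab5c, 1 of 3 Rab5 proteins that drive fusion of early endosomes, measured 1580.5, 1502 and 1577 in the wild-type and 1794, 1717 and 1639 in the mutant libraries. The groups did not overlap, and the log2 change of 0.14 ± 0.065 (SE) had limma adjusted p = 0.267. Rab5a, the highest of this role per length, gave 2259.5, 2512 and 2354 in the wild-type and 2349.8, 2328 and 2106 in the mutant libraries, overlapping, with a log2 change of -0.071, and Rab5b gave 0.067.

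Rab31, a Rab5-related protein of the trans-Golgi network and endosomes, lay lower in the mutants. It measured 1566, 1632 and 1571 in the wild-type and 1380.0, 1411 and 1370.0 in the mutant libraries. The replicates of each group kept close together and a gap separated the groups, with a log2 change of -0.20 ± 0.062 (SE) (limma, adjusted p = 0.148), and -0.18 after the GC and length correction. The authors' deposited table has it in a list of 40 oligodendrocyte genes among the lower ones (2.68-fold enrichment, corrected p = 1.79e-07). Of 8 oligodendrocyte markers, 7 had negative log2 changes, with a median of -0.20. Their summed level was 72135 to 83697 in wild type and 60439 to 76444 in the mutants, lowest in mutant replicate 1, and none was at 0. In Rab31 the 3 mutant values were alike, with replicate 3 the lowest. The part of these markers in its difference was not tested. Rab21 and Rab22a overlapped between groups, with log2 changes of -0.10 and 0.027.

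Recycling endosome genes were positive for 6 of 7 (85.7%, against 46.8% of all tested genes), with a median log2 change of 0.16. Rab11a was the exception. Rab11a, which returns cargo such as glutamate receptors from recycling endosomes, measured 2328, 2826 and 2741 in the wild-type and 2258, 2291 and 2294 in the mutant libraries. The mutant libraries agreed closely with each other and lay just under the lowest wild-type library, giving a log2 change of -0.20 ± 0.078 (SE) (limma, adjusted p = 0.207). Its paralogue Rab11b lay in the other direction, with 752, 707 and 744 in the wild-type and 875, 827 and 764 in the mutant libraries, also without overlap, and a log2 change of 0.16 (limma adjusted p = 0.291). Rab4a, of the fast recycling route, measured 419, 387 and 444 in the wild-type and 458, 455 and 502 in the mutant libraries. These groups did not overlap either, and its log2 change of 0.18 had an interval of -0.017 to 0.38. Rab15, a neuron-enriched endocytic Rab, Rab4b, Rab35 and Rab14 had overlapping groups with log2 changes of 0.16, 0.16, 0.078 and 0.064. After the GC and length correction Rab11a was at 0.012, and all 7 log2 changes were positive. Rab25, an epithelial member, had at most 0.981 read equivalents in any library.

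Late endosome genes showed no separation. Rab7, which brings late endosomes to lysosomes and is the highest of them per length, gave 2475, 2447 and 2448 in the wild-type and 2955, 2803 and 2356 in the mutant libraries, with mutant replicate 3 under every wild-type library and the other mutants above them. Its log2 change was 0.13. Rab9 and Rab9b, of the return route to the trans-Golgi network, had log2 changes of -0.069 and -0.094, and Rab7b one of -0.20.

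In the contrast between vesicle and endosomal Rabs, Rab3a had a higher log2 change than any endosomal gene tested. The Rab3 set as a whole did not separate from them. The median log2 change was 0.12 for the 4 Rab3 genes and 0.064 for the 17 endosomal genes, a difference of 0.054. In single libraries the Rab3 median minus the endosomal median, each as a deviation from the 6-library mean, was -0.10, -0.085 and -0.020 in wild type and 0.22, -0.028 and -0.050 in the mutants. Mutant replicate 1 alone lay above 0, and without it the difference was -0.024. For Rab3a alone the same differences were -0.14, -0.15 and -0.059 in wild type and 0.25, 0.038 and 0.058 in the mutants. Here the 3 mutant libraries were all higher than the wild-type libraries, with a difference of 0.22 that ran from 0.15 to 0.25 over the settings tried. None of the 17 endosomal genes had as high a log2 change as Rab3a. The comparison with Rab3a alone was chosen after its value was seen.

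**Figure D4:**
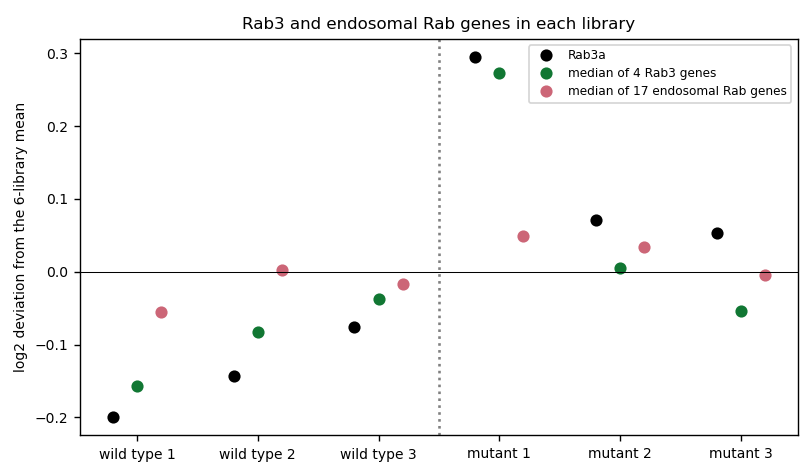
Log2 deviation from the 6-library mean (vertical axis) of Rab3a, the median of 4 Rab3 genes and the median of 17 endosomal Rab genes in each library. Rab3a is below 0 in every wild-type and above 0 in every mutant library, while the Rab3 median stands well above the endosomal median only in mutant replicate 1.

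On the route from the endoplasmic reticulum through the Golgi, Rab6b and Rab33b lay in opposite directions. Rab6b measured 9355, 9277 and 9115 in the wild-type and 11765, 10786 and 10235 in the mutant libraries. The wild-type libraries were nearly equal and all mutants lay above them, with a log2 change of 0.24 ± 0.066 (SE) and an interval of 0.093 to 0.38 (limma, adjusted p = 0.129). The ubiquitous Rab6a gave 12311, 14732 and 13954 in the wild-type and 12407, 13197 and 12623 in the mutant libraries, overlapping, with a log2 change of -0.097. The authors' deposited tables list Rab6b with Rab3a among the interneuron genes and under vesicle-mediated transport (92 genes, 2.15-fold, corrected p = 7.83e-08).

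Rab33b, a Golgi Rab that also binds an autophagy protein complex, had the most negative log2 change of the 54 genes tested. It measured 791, 921 and 797 in the wild-type and 603, 640.3 and 747 in the mutant libraries. All mutants were lower than every wild-type library, mutant replicate 3 least so, with means of 836 ± 73.4 (SD, n = 3) for wild-type and 663 ± 74.5 (SD, n = 3) for mutant libraries. The log2 change of -0.34 ± 0.098 (SE) had a limma adjusted p = 0.138, and after the GC and length correction it was -0.27. Rab2a, which acts between endoplasmic reticulum and Golgi, measured 6246, 7382 and 6842 in the wild-type and 6365, 6132 and 6028 in the mutant libraries, overlapping, and had a log2 change of -0.14. Rab1, Rab1b, Rab2b, Rab18, Rab30 and Rab43 also overlapped, with log2 changes from -0.15 to 0.056. Rab19 had under 10 read equivalents in every library.

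Of 5 post-Golgi genes, Rab10, which delivers membrane to growing axons and dendrites, was the highest per length. It gave 3684, 4172 and 3819.8 in the wild-type and 3158, 3844 and 3631 in the mutant libraries, with mutant replicate 1 lowest, overlapping groups and a log2 change of -0.14. Rab8a, Rab8b and Rab12 lay between -0.05 and 0.019. Rab13, a low-abundance Rab of cell junctions, measured 55.9, 57.7 and 63.6 in the wild-type and 52.3, 49.5 and 44.7 in the mutant libraries, lower in all mutants but with an interval of -0.65 to 0.10.

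Among genes tied to cilia, Rab23, a repressor of Hedgehog signalling in the mouse, measured 359, 388 and 383 in the wild-type and 399.97, 391 and 371 in the mutant libraries. The groups overlapped and the log2 change was 0.039, with an interval of -0.15 to 0.23. Rab28, a Rab of the cilium, gave 985, 1056 and 1101 in the wild-type and 886, 959 and 906 in the mutant libraries. It was lower in all mutants (limma, adjusted p = 0.205), and Rab34 was likewise without overlap at a log2 change of -0.14 (limma adjusted p = 0.53). The lysosome-related Rab29, Rab32 and Rab38 were low, the highest mean being 57.1 in wild type, and their intervals held 0.

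Rab24, an atypical Rab linked to autophagy, showed little spread within groups. It measured 602, 591 and 598 in the wild-type and 527, 537 and 517 in the mutant libraries. A gap separated the groups, with a log2 change of -0.18 ± 0.074 (SE) (limma, adjusted p = 0.228), and -0.18 after the GC and length correction. Rab36, a Golgi-associated Rab, gave 158, 139 and 156 in the wild-type and 204, 185 and 173 in the mutant libraries, all mutants higher, with a log2 change of 0.31 (limma, adjusted p = 0.208). Rab40b, part of a ubiquitin ligase, had overlapping groups and a log2 change of -0.27 (limma adjusted p = 0.28). Rab39b, whose loss causes X-linked intellectual disability in humans, gave 1552, 1947 and 1792 in the wild-type and 1533, 1679 and 1623 in the mutant libraries, overlapping, at a log2 change of -0.12. Rab33a, Rab39, Rab40c and Rab42 overlapped as well, with log2 changes from -0.22 to 0.49, the last from a mean of 10.1 in wild type. Rab17 and Rab44 were at or near 0, with at most 1.05 and 2.10 read equivalents in any library.

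Rab20 was under the level for testing, and most of its reads came from 2 libraries. It measured 9.57, 2.28 and 9.68 in the wild-type and 0, 1.05 and 0 in the mutant libraries. The libraries that carried it, wild-type replicates 1 and 3, were also those high in choroid plexus markers, whose sums were 87061, 4780.7 and 34287 in wild type. All 10 of those markers had negative log2 changes, and none was at 0. The authors' deposited ontology tables have Rab20 among their lower genes, for example under endosome (56 genes, 2.31-fold, corrected p = 0.000135), together with Rab11a, Rab27b and Rab31. The part of the choroid plexus markers in the Rab20 values was not tested.

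Log2 changes of Rab genes went with the base composition of their transcripts. Across the 54 genes the Spearman correlation of log2 change with transcript GC content was 0.473, and across 15432 tested genes it was 0.359. These genes share the same 6 libraries, so they are not independent replicates. Of the 27 Rab genes with the lower GC content 9 had positive log2 changes (median -0.071), and of the 27 with the higher content 17 did (median 0.078). Correction for GC content and length took Rab11a, whose transcript has 39.5% GC, from -0.20 to 0.012, Rab28 from -0.19 to -0.054 and Rab27b from -0.20 to -0.072. After it, 7 Rab genes were higher at an unadjusted p under 0.05 (13.0%, background 8.99%), namely Rab1, Rab14, Rab36, Rab3a, Rab4a, Rab5c and Rab6b, and 3 were lower (5.56%, background 5.72%). Rab3a, Rab6b and Rab36 were higher and Rab24, Rab31 and Rab33b lower at that level both before and after the correction.

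**Figure D5:**
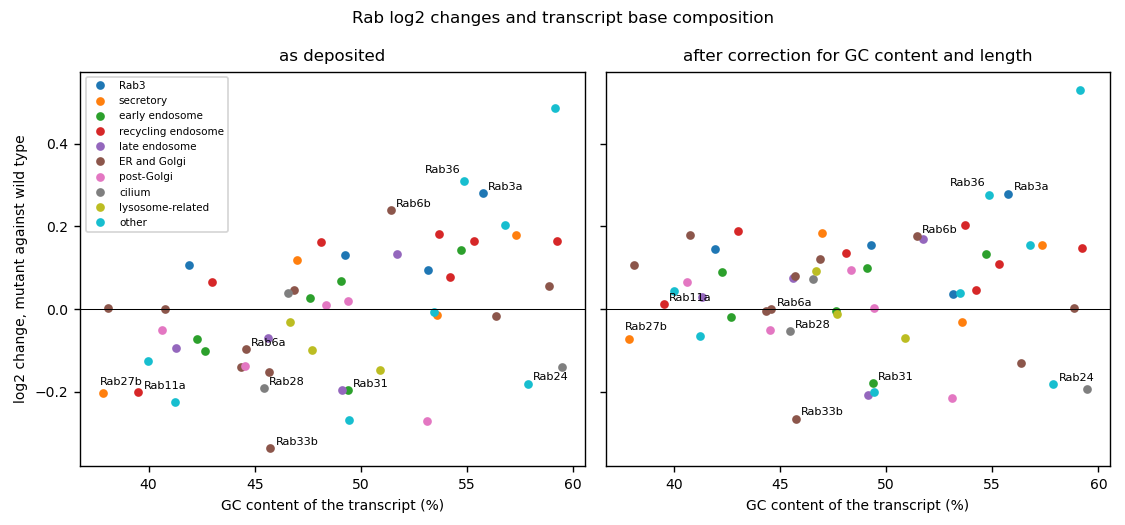
Log2 change of 54 Rab genes (vertical axis) against the GC content of their transcripts in percent (horizontal axis), as deposited on the left and after correction for GC content and length on the right, coloured by role. Rab11a, Rab27b and Rab28 move towards 0 on the right, whereas Rab3a, Rab31 and Rab24 move by little and Rab33b goes from -0.34 to -0.27.

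Pairs of paralogues within 1 library give a ratio that is free of its size factor. The ratio of Rab6b to Rab6a was 0.76, 0.63 and 0.653 in the wild-type and 0.948, 0.817 and 0.811 in the mutant libraries, without overlap. Rab11b to Rab11a gave 0.323, 0.25 and 0.271 in the wild-type and 0.388, 0.361 and 0.333 in the mutant libraries, again higher in all mutants. Rab5c to Rab5a gave 0.7, 0.598 and 0.67 in the wild-type and 0.763, 0.738 and 0.778 in the mutant libraries, also separate.

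Of 12 pairs compared, 7 were higher in all mutants, the other 5 overlapped and none was lower in all mutants. In every pair the numerator is the gene with the higher log2 change, so the direction follows from how the ratios were written. How often the ratios of other gene pairs do not overlap was not computed. In each of the 7 the numerator has the higher GC content, for instance 48.1% against 39.5% for Rab11b and Rab11a. The same holds for every overlapping pair except Rab4a to Rab4b (53.7% against 59.2%), so the 7 are not particular in this. After the correction the log2 changes were 0.18 and -0.0008 for Rab6b and Rab6a, 0.13 and 0.012 for Rab11b and Rab11a, and 0.13 and 0.091 for Rab5c and Rab5a. Rab4a to Rab4b, Rab5b to Rab5a, Rab1b to Rab1, Rab8a to Rab8b and Rab9 to Rab9b had overlapping ratios. The pairs, and which gene of each was the numerator, were chosen after the values were seen. Parts of some paralogues are alike in sequence, and the sources used here do not say how reads that match several places were counted.

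Most genes on the list of Rab3 partners had positive log2 changes, and none passed the adjusted threshold. Of 20 tested genes on it, 14 had positive log2 changes (70%, against 46.8% of all tested genes). The median was 0.091, against -0.016 over all tested genes. The list is mixed and also holds Unc13a, Unc13b, Doc2a, Doc2b, the Sytl genes, Rab3ip and Rab3il1. Binding or regulation of Rab3 was not checked here for any gene on it. At an unadjusted p under 0.05, 6 were higher (30%, background 9.01%) and 1 lower (5%, background 9.7%), and by the authors' adjusted p 4 were higher (20%, background 4.57%). Unc13a and Doc2a were among the 6 higher, and Sytl4 was the 1 lower. After the GC and length correction 5 were higher (25%, background 8.99%) and 0 lower (background 5.72%), and the median was 0.055. The list was chosen with earlier results known, so these shares are a description. Syn1, which tethers synaptic vesicles to each other, had the smallest p, with 2045, 1755 and 2124 in the wild-type and 3205, 2669.7 and 2505 in the mutant libraries. Its groups were widely separate, at a log2 change of 0.50 ± 0.10 (SE) (limma, adjusted p = 0.109). Rims1, encoding the RIM protein that Rab3a binds, gave 3951, 3796 and 3900.0 in the wild-type and 4924, 4617 and 4222 in the mutant libraries, a log2 change of 0.24 (limma, adjusted p = 0.132). Madd, a Rab3 exchange factor, had a log2 change of 0.19 (limma adjusted p = 0.147), which was 0.069 after the GC and length correction.

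Partners of endosomal Rabs lay on both sides of 0. Among 35 endosomal partners 20 had positive log2 changes (57.1%, against 46.8% of all tested genes), with a median of 0.032. At an unadjusted p under 0.05, 4 were higher (11.4%, background 9.01%) and 2 lower (5.71%, background 9.7%). After the GC and length correction 1 was higher (2.86%, background 8.99%) and 2 lower (5.71%, background 5.72%). Rab11fip3, an effector of Rab11, measured 1052, 966 and 876 in the wild-type and 1279, 1283 and 1149.9 in the mutant libraries, all mutants higher, at a log2 change of 0.36 ± 0.084 (SE) (limma, adjusted p = 0.118), and 0.21 after the correction. Dennd1a, an exchange factor for Rab35, and Rab11fip5 had log2 changes of 0.21 and 0.20, which the correction took to 0.11 and 0.035. Of the factors common to all Rabs, Gdi2, a widely expressed GDP dissociation inhibitor, had a log2 change of -0.15 (limma adjusted p = 0.267), and Rabggtb, a subunit of the enzyme that attaches lipid to Rabs, one of -0.20 (limma adjusted p = 0.205). After the correction they were at -0.012 and -0.049.

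The sequence upstream of the transcription start was taken for Rab11a because the authors' deposited motif table lists it among 94 lower genes under GABPA, an ETS factor (2.38-fold, corrected score 2.79e-12), for Rab24 because it holds the same ETS letters and also lay lower, and for Rab3a as the gene with the smallest p among the higher ones. Rab24 and Rab3a were chosen with their values known. Each sequence is the 250 bases before the RefSeq start (GRCm38.p6), read 5′ to 3′ on the gene's strand. Capitals mark the ETS core CCGGAAG or its reverse complement CTTCCGG. The Rab11a window is chr9:64737757-64738006 on the minus strand, the Rab24 window chr13:55321981-55322230 on the minus strand and the Rab3a window, the first of 2 starts, chr8:70754453-70754702 on the plus strand.
Rab11a: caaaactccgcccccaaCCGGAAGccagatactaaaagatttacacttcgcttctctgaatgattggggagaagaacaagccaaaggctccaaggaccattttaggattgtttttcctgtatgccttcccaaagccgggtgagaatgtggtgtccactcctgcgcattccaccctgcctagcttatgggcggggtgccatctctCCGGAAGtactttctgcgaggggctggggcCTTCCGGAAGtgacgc
Rab24: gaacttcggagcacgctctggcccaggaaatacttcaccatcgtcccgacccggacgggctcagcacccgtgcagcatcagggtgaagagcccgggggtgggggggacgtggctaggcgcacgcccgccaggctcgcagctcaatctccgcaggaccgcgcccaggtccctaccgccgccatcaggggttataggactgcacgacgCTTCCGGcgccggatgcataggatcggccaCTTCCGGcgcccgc
Rab3a: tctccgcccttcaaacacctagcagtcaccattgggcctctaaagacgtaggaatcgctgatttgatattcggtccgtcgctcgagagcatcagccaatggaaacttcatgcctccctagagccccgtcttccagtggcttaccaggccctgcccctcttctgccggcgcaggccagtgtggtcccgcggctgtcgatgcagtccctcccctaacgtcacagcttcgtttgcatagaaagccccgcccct

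The Rab11a window holds the letters in 3 separate places, whose first bases lie at -233, -46 and -16 from the start. At -16 the copies of both strands overlap. The Rab24 window holds 2, at -44 and -14, and the Rab3a window none. Of the 60 windows matched to 48 of the 59 Rab genes, 3 held the letters (5.0%), those of Rab11a, Rab24 and Rab8a, against 6.91% of 32851 windows of all genes. Rab8a had overlapping groups and a log2 change of 0.019. Windows with 3 or more separate places made up 0.067% of all, but Rab11a was picked from a list made for an ETS factor. A match is a run of letters and was not tied to binding.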

How the data were processed

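The submitters' processing notes name GSNAP, DESeq2 and the mm9 build; the counting step is not described there. The authors' deposited main table gives a normalized signal per transcript, read here as base coverage over a size factor: in each library 100% of values were whole multiples of 1 step (within 0.01 of a step), with pile-ups at 42, 84 and 126. No source used here states this unit. The deposited table also holds the authors' p-value and a signed score, and further deposited tables give a fold enrichment (ratio), a number (count) of genes and a corrected p-value or score per term. The sources used here do not say whether the authors' p-values are one- or two-sided; they ran up to 1, were above 0.5 for 35.0% of tested genes, and were under 0.05 for 1612 genes with positive and 1738 with negative log2 changes. All per-sample columns were used (0 left out).

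Coverage was divided by 42. Genes with a mean of at least 10 (15717) were compared with limma (version 3.58.1, R 4.3.3), using moderated variances with a trend on log2(value + 1), two-sided p-values adjusted by Benjamini-Hochberg and a threshold of 0.05; low genes' changes are understated. A count model was not used on coverage, and an exact permutation test of 3 against 3 cannot go below 0.1. The script was tested on simulated data. Transcript length and GC content came from GRCm38 transcripts (GENCODE M21) matched by RefSeq identifier for 98.2% of tested genes; splines of 5 degrees of freedom on each were subtracted from each library's deviations.

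The Rab genes, roles, partner lists and tests were chosen with earlier results of these data known. Named genes were the Rab3 and Rab27 genes, the 3 with the smallest p and the highest per length in each role, and the 3 with the smallest p in each partner list; other Rab genes are named to account for every one. A gene that this rule selects is not reported here. Leaving out the 2 wild-type libraries high in choroid plexus markers was added after seeing the data.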

Additional observations from a re-analysis of the deposited data

How the results depend on the processing

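No paired analysis was possible because the titles give each library its own number and the groups share none. With limma array weights 1 Rab gene, Rab6b, passed the adjusted threshold (adjusted p = 0.0448), against 5.12% of all genes, and none did under the other settings. The number of Rab genes at an unadjusted p under 0.05, 9 in all, was 3, with 1 of them lower, without the library in each group whose GC trend was strongest, where 11.7% of all genes were at that level against 18.7%. Under the GC and length correction there were 7 higher and 3 lower. Leaving out each library in turn gave 4 to 12 in all, 2 to 7 higher and 2 to 9 lower, with 11.7% to 20.8% of all genes at that level. The Ptchd1 log2 change missed the adjusted threshold with no filter but a mean above 0 (-1.28, adjusted p = 0.134), with quantile normalization (-1.25, 0.0556), with transcript rows summed (-1.28, 0.0749), without the 2 wild-type libraries high in choroid plexus markers (-1.35, 0.406) and without single libraries, over which it ran from -1.41 to -1.17; the cause was not tested. The Rab3 minus endosomal difference was -0.0040 with array weights and ran from -0.024 to 0.12 without single libraries. Of 728 pairs of a named gene and a setting, 705 kept the sign. The 23 others were, under the GC and length correction, Rab11a 0.012, Rab38 0.091, Rab39b 0.042, Rab5a 0.091, Rab8b 0.066 and Rab9b 0.030; without the library in each group whose GC trend was strongest, Rab21 0.023, Rab3b -0.087 and Rab8b 0.029; without the 2 wild-type libraries high in choroid plexus markers, Rab23 -0.0059, Rab32 0.095, Rab38 0.17, Rab3c -0.087 and Rab7b 0.033; with quantile normalization, Rab38 0.049; and without single libraries, Rab29 (range -0.27 to 0.0031), Rab32 (-0.20 to 0.034), Rab38 (-0.20 to 0.22), Rab3b (-0.026 to 0.22) and Rab7b (-0.41 to 0.076). Depth limits the genes of low signal: the median half-width of the 95% interval of a Rab log2 change was 0.19, and it was at most 0.28 for the 34 genes with a mean above 500.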
